A study of Mus musculus with 2 samples.

Results

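Transcripts of the oxidative phosphorylation machinery were examined in microglia, the resident macrophages of the brain, sorted from the hypothalamus of young wild-type mice. The members were the genes whose symbols mark them as part of respiratory complexes I, III and IV or of the ATP synthase (complex V), in both the nuclear and the mitochondrial genome. Symbols beginning with mt-, Ndufa, Ndufb, Ndufc, Ndufs, Ndufv, Uqcr, Cox4i1, Cox5, Cox6, Cox7, Cox8 or Atp5 were taken, and pseudogene symbols were left out. This gave 101 of the 31053 listed genes, with 13 encoded in the mitochondrial genome and 88 in the nucleus. The mice of both groups had received plasma protein carrying a fluorescent dye 20 hours before sorting, and several animals were pooled. Flow sorting then divided the microglia into cells that carried the dye (plasma-positive) and cells that did not (plasma-negative). Both groups therefore came from injected mice, and each was 1 droplet library. Every difference below lacks a replicate check, and no test was made.

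The respiratory chain passes electrons from NADH and other donors to oxygen across the inner mitochondrial membrane and pumps protons as it does so, and the ATP synthase uses the returning protons to make ATP. Complex I accepts electrons from NADH, complex III passes them to cytochrome c, and complex IV (cytochrome c oxidase) delivers them to oxygen. The mitochondrial genome encodes the hydrophobic cores of these complexes and is transcribed as long RNAs that are cut into single messages, while the remaining subunits are transcribed in the nucleus, translated in the cytosol and imported. In macrophages, the balance between this machinery and glycolysis is known to shift with activation state.

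After removal of cells with under 500 unique molecular identifiers (UMIs, the tags that mark single captured RNA molecules), under 300 genes or over 10% mitochondrially encoded UMIs, 9860 plasma-negative and 10362 plasma-positive cells remained. They held 34534518 and 41984977 UMIs, with medians of 3270.5 and 3753 UMIs per cell. All 11 microglia markers examined were detected, in 64.4% to 99.6% of plasma-negative cells and in 68.0% to 99.8% of plasma-positive cells. For 12 other cell types, 24 of 55 markers in the plasma-negative and 21 of 55 in the plasma-positive library had 0 UMIs, and the summed level per type ranged from 0 to 48.1 and from 0 to 48.7 counts per 1000000 UMIs (CPM). RNA that stays in the nucleus (Malat1, Neat1, Kcnq1ot1 and Meg3) differed between the libraries, at 6.61% of plasma-negative and 5.44% of plasma-positive UMIs.

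All 13 mitochondrially encoded members were at higher levels in the plasma-positive library. Together they took 1.20% of plasma-negative UMIs (exact Poisson interval 1.20% to 1.21%) and 1.42% of plasma-positive UMIs (1.42% to 1.43%), a ratio of 1.19 (1.18 to 1.19). These 95% intervals, and all others here, cover counting error only, not variation among animals or preparations. Of the 12 that reached 50 CPM in at least 1 library, 12 were at least 1.1-fold higher, against 7.18% of the 3540 genes that reached that level, and 39.0% of those genes were higher by any amount. On the log2 scale, with positive values for a higher plasma-positive level, their median ratio was 0.25, beside -0.03 for all compared genes.

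The cytochrome c oxidase core genes took the largest share of the 4 complexes, 0.510% of plasma-negative and 0.607% of plasma-positive UMIs. mt-Co3, a core subunit of complex IV, stood at 2059.7 CPM in the plasma-negative and 2415 CPM in the plasma-positive library. mt-Co1, which holds the oxygen-reducing centre (chrM:5328-6872 on GRCm38, plus strand), stood at 1506 and 1844 CPM, a log2 ratio of 0.29 (0.28 to 0.31). mt-Co2, which accepts electrons from cytochrome c, stood at 1535 and 1811 CPM. The summed complex IV core was 1.19-fold higher (1.18 to 1.20) in the plasma-positive library.

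The remaining mitochondrial genes had the same direction. mt-Cytb, the mitochondrially encoded subunit of complex III, stood at 1503 and 1767 CPM. mt-Nd1, mt-Nd2 and mt-Nd4, proton-pumping membrane subunits of complex I, stood at 874, 987 and 1108 CPM in the plasma-negative library, and at 1037, 1183 and 1335 CPM in the plasma-positive library. Among the less abundant complex I genes, mt-Nd5 stood at 222 and 273 CPM and mt-Nd4l at 175 and 214 CPM. The smallest difference was that of mt-Nd3 (chrM:9459-9806), another membrane subunit, at 376 and 416 CPM, a log2 ratio of 0.15 (0.12 to 0.18). Its interval did not overlap that of any other mitochondrial member. mt-Nd6, the only mitochondrial member encoded on the minus strand (chrM:13552-14070), stood at 34.4 and 43.3 CPM and was not among the 12 compared. It overlaps mt-Nd5 on the other strand, and the use of strand in counting is not given in the sources used here.

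**Figure D1:**
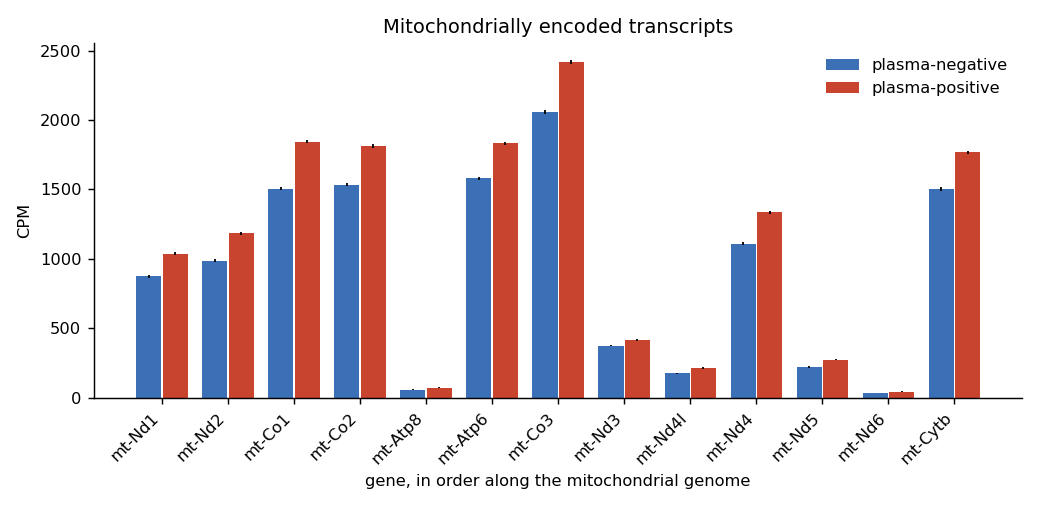
Levels of the 13 mitochondrially encoded members in CPM on a linear axis from 0, in genome order, with 1 bar per library and exact Poisson intervals. The plasma-positive bar is the taller for every gene, from mt-Nd6 at 34.4 and 43.3 CPM to mt-Co3 at 2059.7 and 2415 CPM.

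Neighbouring mitochondrial genes of complexes V and I share bases, and a read that lies wholly within a shared stretch cannot be assigned to 1 gene. The stretches are shown with the shared bases in capitals (GRCm38, GENCODE release M21, plus strand, chrM:7897-7999 and chrM:10137-10203). The first overlap spans 43 bases and the second 7 bases. How many reads lay wholly within either was not examined.
mt-Atp8 into mt-Atp6: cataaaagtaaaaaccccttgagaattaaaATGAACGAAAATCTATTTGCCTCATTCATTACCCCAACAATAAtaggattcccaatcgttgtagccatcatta
mt-Nd4l into mt-Nd4: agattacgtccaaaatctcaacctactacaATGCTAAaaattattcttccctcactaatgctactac
mt-Atp8 and mt-Atp6, both membrane subunits of the ATP synthase, stood at 58.1 and 1579 CPM in the plasma-negative library and at 71.5 and 1832 CPM in the plasma-positive library. The 2 genes of each pair are read from 1 RNA, so their separate levels are uncertain while their direction was the same.

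The nuclear members were also mostly higher in the plasma-positive library, by less. They took 1.11% of plasma-negative and 1.20% of plasma-positive UMIs, a ratio of 1.08 (1.08 to 1.09). Of the 88, 85 had a UMI and 70 reached 50 CPM. Of those 70, 66 were higher, 18 were at least 1.1-fold higher and 1 was at least 1.1-fold lower, beside 7.18% and 11.5% of all compared genes. Their median log2 ratio was 0.10, which lies 0.15 below that of the mitochondrial members. A fit with TMM scaling (trimmed mean of M-values) in place of the UMI total placed 36 of the 70 past 1.1-fold, beside 12.4% of all compared genes.

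Among cells of like nuclear-retained RNA, the nuclear members were nearly level between the libraries in most bins. Cells of both libraries were ranked together by the share of UMIs on Malat1, Neat1, Kcnq1ot1 and Meg3 and divided into 10 bins, an alternative chosen after seeing the data. In the lowest bin the nuclear members took 1.54% of plasma-negative and 1.57% of plasma-positive UMIs, a ratio of 1.02 (1.01 to 1.03). In bins 2 to 8 the ratio lay between 1.00 and 1.01. In bins 9 and 10, the cells with most nuclear-retained RNA, it was 0.957 (0.940 to 0.974) and 0.877 (0.844 to 0.911), so the nuclear members were lower there. The mitochondrial members, in contrast, were higher in the plasma-positive cells of all 10 bins, from 1.05 in the lowest bin to 1.36 in bin 9. Averaged over the 10 bins, 23 of the 70 nuclear members were higher. Each bin weighed the same in this average, bins 9 and 10 included, and no counting interval was made for it. The median log2 ratio of the 70 was -0.02, beside -0.02 for all compared genes. Of the 70, 0 were at least 1.1-fold higher and 2 were at least 1.1-fold lower, beside 3.05% and 4.86% of all compared genes. The 2 lower ones were Ndufs8, at -0.16 on the log2 scale, and Ndufv2, at -0.26. Under the same average all 12 compared mitochondrial members were higher, with a median of 0.22. In bin 10 the nuclear members took 0.531% of plasma-negative and 0.466% of plasma-positive UMIs.

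**Figure D2:**
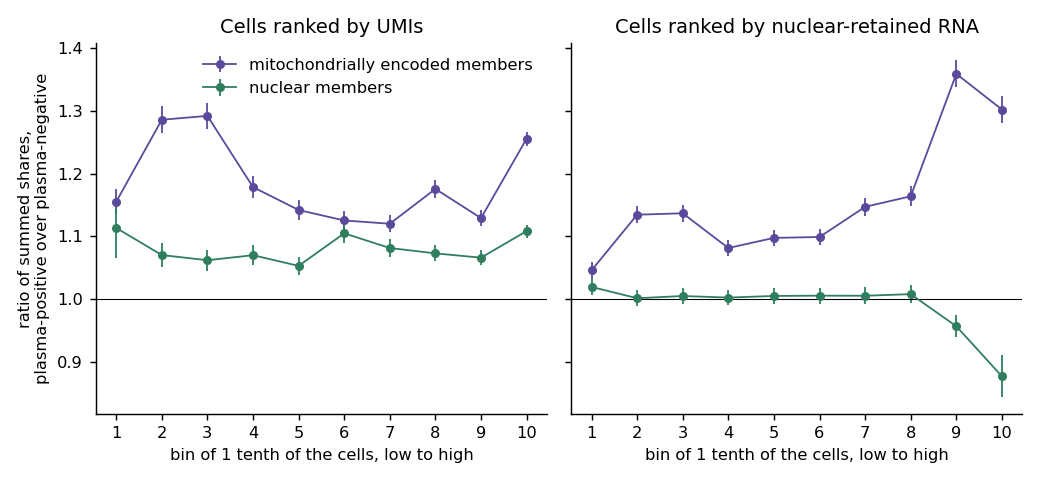
Ratio of summed member shares, plasma-positive over plasma-negative (linear axis, exact 95% intervals), in 10 bins of equal cell number ranked by UMIs per cell (left) or by nuclear-retained RNA share (right). The nuclear ratio lay above 1 in every depth bin but between 1.00 and 1.02 in the first 8 nuclear-retained RNA bins, while the mitochondrial ratio stayed above 1 in both panels.

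**Figure D3:**
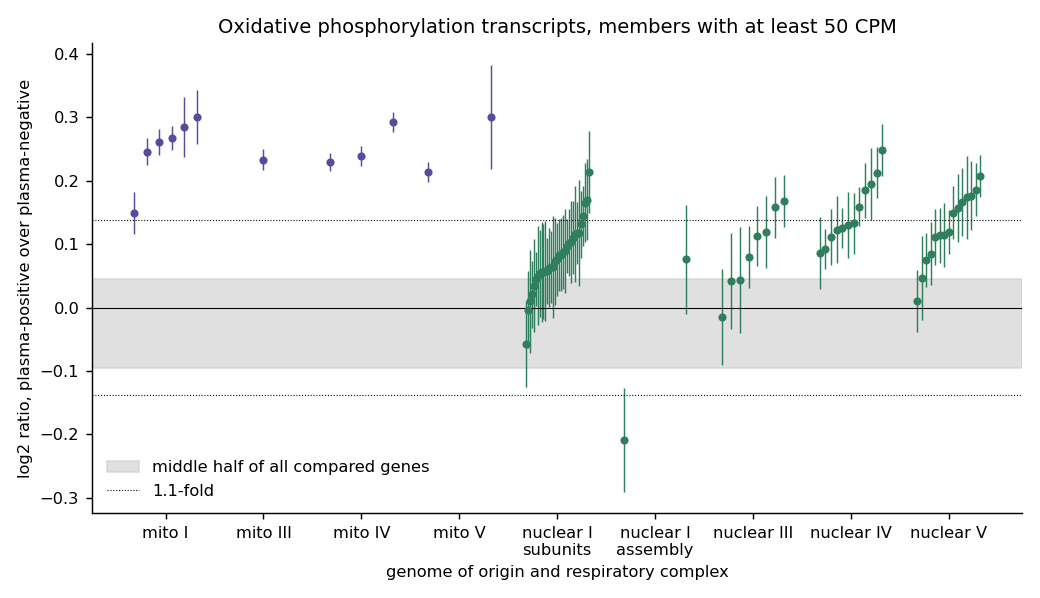
log2 ratio, plasma-positive over plasma-negative, of each compared member with its exact 95% interval, by genome of origin and complex, beside the interquartile band of all compared genes and the 1.1-fold lines. The mitochondrial members lay between 0.15 and 0.30, and the nuclear members between -0.21 and 0.25.

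By complex, the nuclear medians ran from complex I, the lowest, through complexes III and V to complex IV. The summed ratios had the same order. They were 1.054 (1.047 to 1.062) for complex I with its assembly factors and 1.080 (1.066 to 1.095) for complex III. Complex V had 1.095 (1.086 to 1.104) and complex IV 1.107 (1.098 to 1.116). These intervals overlapped between complexes III and V and between V and IV. The 33 compared nuclear subunits of complex I had a median log2 ratio of 0.08. Of these, 31 were higher and 4 (12.1%) at least 1.1-fold higher, beside 39.0% and 7.18% of all compared genes. The most abundant were the accessory subunits Ndufc2, at 235 and 243 CPM, Ndufa13, at 227 and 242 CPM, and Ndufa2, at 184 and 203 CPM. The highest ratio was that of Ndufc1, a small membrane-arm subunit, at 96.0 and 111 CPM, a log2 ratio of 0.21 (0.15 to 0.28). The lowest was that of Ndufs8, which holds iron-sulphur clusters of the electron path, at 95.8 and 92.0 CPM (-0.06, with an interval of -0.13 to 0.01). The nuclear core subunits, which carry the flavin and the iron-sulphur clusters, were summed to a ratio of 1.02 (0.996 to 1.04), against 1.07 (1.06 to 1.07) for the accessory subunits.

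Ndufv2, a core subunit of the NADH-binding module, stood at 65.0 and 65.4 CPM. Ndufab1, the mitochondrial acyl carrier protein, which also serves lipoic acid synthesis, stood at 114 CPM in both libraries. In the sums neither differed beyond counting error. Averaged with equal weight over the bins of nuclear-retained RNA, the log2 ratio was -0.26 for Ndufv2 and -0.05 for Ndufab1. No counting interval was made for these averages.

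The complex I assembly factors, which help build the complex and are absent from the finished one, were spread to both sides of no difference, with 4 of 8 higher. Ndufaf4 (chr4:24898083-24905001, plus strand) stood at 68.7 CPM in the plasma-negative and 59.5 CPM in the plasma-positive library, a log2 ratio of -0.21 (-0.29 to -0.13). It was the only compared nuclear member at least 1.1-fold lower, and averaged over bins of nuclear-retained RNA its value was -0.10. Ndufaf8 stood at 57.0 and 60.1 CPM. Of the 7 factors that reached 10 CPM, 1 was at least 1.1-fold higher and 2 were lower, beside 6.82% and 16.5% of the 8355 genes at that level. The higher one was Ndufaf2, at 29.6 and 33.8 CPM, and the other lower one was Ndufaf6, at 11.7 and 9.15 CPM (-0.36, with an interval of -0.56 to -0.15). Ndufaf7 stood at 46.0 and 48.2 CPM, Ndufaf3 at 31.6 and 31.5 CPM, Ndufaf1 at 16.7 and 15.7 CPM, and Ndufaf5 at 4.08 and 4.26 CPM. Summed, the 8 factors had a ratio of 0.988 (0.961 to 1.02).

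In complex III, 7 of 8 nuclear subunits were higher and 2 were at least 1.1-fold higher, with a median log2 ratio of 0.10. The shares over all compared genes were 39.0% and 7.18%. The small subunits Uqcrh, the hinge protein, at 243 and 273 CPM, and Uqcr11, at 174 and 195 CPM, were the ones past 1.1-fold. Uqcrb stood at 182 and 197 CPM. Uqcrfs1, the Rieske iron-sulphur protein of the catalytic core, stood at 75.03 and 74.22 CPM, with a log2 ratio of -0.02 (-0.09 to 0.06). The core protein genes Uqcrc1 and Uqcrc2 stood at 60.5 and 74.3 CPM in the plasma-negative and at 62.3 and 76.5 CPM in the plasma-positive library, differences within counting error.

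Complex IV held 5 nuclear members past 1.1-fold among 12 compared, all 12 of them higher, beside 7.18% and 39.0% of all compared genes. Their median log2 ratio was 0.13, and the summed ratio of complex IV was 1.107 (1.098 to 1.116). Ndufa4, once assigned to complex I and now known as a complex IV subunit (chr6:11900292-11907497, minus strand), had the highest ratio of all nuclear members, at 234 and 278 CPM, a log2 ratio of 0.25 (0.21 to 0.29). Cox6c stood at 247 and 286 CPM (0.21). Cox7c, Cox8a and Cox4i1, the most abundant nuclear members of this complex, stood at 419, 416 and 398 CPM in the plasma-negative library and at 447, 465 and 434 CPM in the plasma-positive library. Cox7a2l, which joins complexes III and IV into supercomplexes, stood at 217 and 234 CPM.

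Several complex IV subunits exist as a widespread and a tissue-restricted isoform, and in these microglia the widespread one held most UMIs. Cox6a1, the widespread form of subunit 6a, stood at 126 and 144 CPM and was found in 32.5% and 39.3% of cells. Cox6a2, known as the heart and muscle form, stood at 28.8 and 26.2 CPM and was found in 7.68% and 7.60% of cells, or in 2.79% and 2.11% of cells thinned to 1000 UMIs. The Cox6a2 gene (chr7:128205435-128206387, minus strand) lies within Itgad on the other strand, and Itgad itself had 4 UMIs in each library. Both libraries were nearly pure microglia, so there was no cell type lacking Cox6a2 against which to read a background share.

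The other restricted forms had few or 0 UMIs. Cox6b2, known from testis, had 84 and 110 UMIs, where Cox6b1 stood at 217 and 247 CPM. Cox7a1, the heart and muscle form of subunit 7a, had 31 and 30 UMIs, where Cox7a2 stood at 179 and 197 CPM. Cox7b2 had 1 and 0 UMIs, where Cox7b stood at 148 and 161 CPM. Ndufa4l2 had 1 UMI in each library, where Ndufa4 stood at 234 and 278 CPM. Cox8b and Cox8c had 0 UMIs in both libraries, which allows up to 0.0869 CPM in the plasma-negative and 0.0715 CPM in the plasma-positive library, while Cox8a was found in 65.1% and 72.6% of cells. A second identifier with the symbol Atp5o was the third nuclear member at 0 in both.

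**Figure D4:**
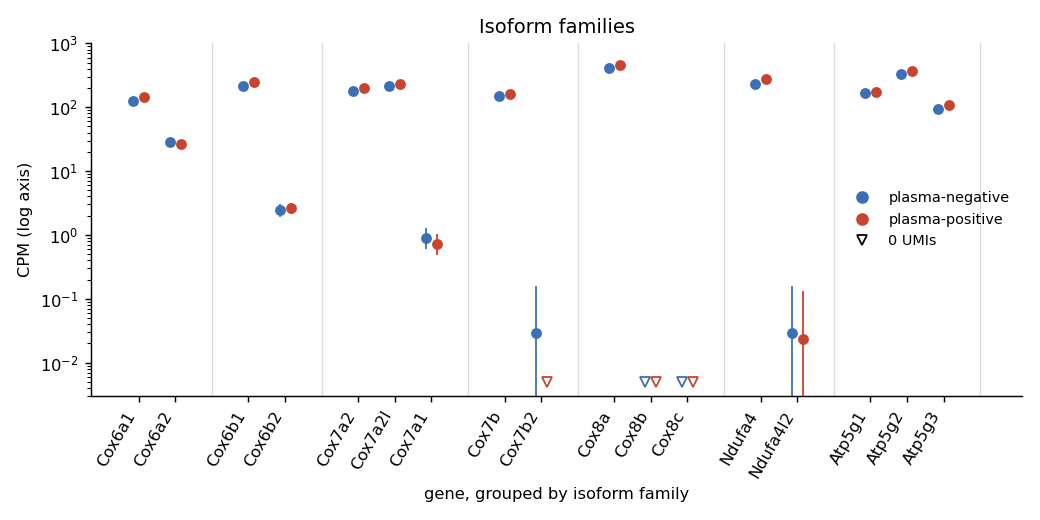
Levels of the isoform families in CPM on a log axis, 1 point per library with exact Poisson intervals and open triangles for 0 UMIs. Within each cytochrome c oxidase family 1 or 2 genes lay above 100 CPM, and Cox6a2, at 28.8 and 26.2 CPM, was the highest of the restricted forms.

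Promoter sequences are shown for 2 sets of members at opposite ends of these data. The first is the 5 highest nuclear ratios, less Cox6c, and the second is the restricted isoforms with at most 110 UMIs in a library, each as far as the promoter table held them. The sequences run 5′ to 3′ on the gene's strand from 220 bases before to 30 bases after the RefSeq start (GRCm38.p6). Capitals mark CGCNTGCG (the core letters bound by NRF1, N being any base), CCGGAAG (bound by ETS factors such as GABP), AAGATGGC (bound by YY1) and GGGCGG (bound by SP and KLF factors), each searched on both strands, and none of these motifs contains another. They lie at chr6:11907421-11907670 (Ndufa4), chr3:51408926-51409175 (Ndufc1), chr2:174464072-174464321 (Atp5e), chr5:115348929-115349178 (Cox6a1), chr7:4753065-4753314 (Cox6b2), chr7:30183951-30184200 (Cox7a1), chr5:71548176-71548425 (Cox7b2) and chr7:140900417-140900666 (Cox8b). Cox7a1 is on the plus strand and the others on the minus strand.
Ndufa4: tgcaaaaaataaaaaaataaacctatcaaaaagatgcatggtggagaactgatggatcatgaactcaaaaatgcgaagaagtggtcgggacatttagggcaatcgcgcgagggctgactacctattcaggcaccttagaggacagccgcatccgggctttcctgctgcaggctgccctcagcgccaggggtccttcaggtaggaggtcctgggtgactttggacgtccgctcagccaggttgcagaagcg
Ndufc1: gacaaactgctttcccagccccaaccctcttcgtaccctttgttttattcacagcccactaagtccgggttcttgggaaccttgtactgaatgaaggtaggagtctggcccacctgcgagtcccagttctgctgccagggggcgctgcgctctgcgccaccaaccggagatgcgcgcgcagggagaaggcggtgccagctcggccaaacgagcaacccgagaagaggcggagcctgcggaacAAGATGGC
Atp5e: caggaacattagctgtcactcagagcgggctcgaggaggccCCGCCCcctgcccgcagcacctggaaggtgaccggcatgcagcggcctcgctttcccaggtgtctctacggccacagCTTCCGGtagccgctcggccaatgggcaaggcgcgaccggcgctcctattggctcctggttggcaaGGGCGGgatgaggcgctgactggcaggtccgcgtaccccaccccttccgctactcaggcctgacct
Cox6a1: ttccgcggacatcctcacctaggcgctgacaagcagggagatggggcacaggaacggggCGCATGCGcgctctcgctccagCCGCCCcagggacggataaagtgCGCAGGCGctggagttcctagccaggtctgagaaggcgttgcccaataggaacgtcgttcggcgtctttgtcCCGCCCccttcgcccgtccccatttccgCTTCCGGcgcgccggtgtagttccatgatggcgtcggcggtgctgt
Cox6b2: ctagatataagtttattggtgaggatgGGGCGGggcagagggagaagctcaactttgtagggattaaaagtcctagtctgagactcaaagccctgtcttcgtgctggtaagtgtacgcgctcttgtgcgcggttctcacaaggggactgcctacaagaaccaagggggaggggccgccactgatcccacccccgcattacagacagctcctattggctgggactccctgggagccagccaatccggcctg
Cox7a1: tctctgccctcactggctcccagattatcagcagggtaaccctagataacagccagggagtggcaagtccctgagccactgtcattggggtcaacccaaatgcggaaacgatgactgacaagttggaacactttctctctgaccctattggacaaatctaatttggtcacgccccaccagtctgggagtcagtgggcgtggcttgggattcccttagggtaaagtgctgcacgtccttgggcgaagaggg
Cox7b2: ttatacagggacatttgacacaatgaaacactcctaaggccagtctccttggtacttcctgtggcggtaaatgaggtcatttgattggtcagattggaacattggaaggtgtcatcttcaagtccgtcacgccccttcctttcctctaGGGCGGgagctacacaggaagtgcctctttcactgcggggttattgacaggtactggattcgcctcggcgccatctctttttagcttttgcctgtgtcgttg
Cox8b: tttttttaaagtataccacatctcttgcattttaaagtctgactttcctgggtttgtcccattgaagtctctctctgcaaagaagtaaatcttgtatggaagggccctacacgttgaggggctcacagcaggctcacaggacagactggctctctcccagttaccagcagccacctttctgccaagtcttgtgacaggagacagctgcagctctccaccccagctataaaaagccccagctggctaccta
The motifs did not separate the sets, which were chosen by different measures, so high and low ratios are not compared here. Of the first, Ndufa4, with the highest ratio, held none of the 4 motifs, Ndufc1 held AAGATGGC, and Atp5e and Cox6a1 held CCGGAAG and GGGCGG, Cox6a1 also CGCNTGCG. Of the second, Cox6b2 and Cox7b2 held GGGCGG, and Cox7a1 and Cox8b held none.

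Across the family, 71 of 87 nuclear symbols were in the promoter table and 60 of them belonged to compared members. In windows from 250 bases before to 50 after the start, CGCNTGCG was present in 40% of the 60, against 22.8% of 2812 compared genes and 9.22% of all 27025 genes in the table. AAGATGGC was present in 16.7%, 6.61% and 3.19%. CCGGAAG was present in 23.3%, 22.8% and 9.93%, and GGGCGG in 40%, 72.0% and 38.2%. These are matches of letters only, and genes can have more than 1 start.

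All 15 compared nuclear members of the ATP synthase were higher in the plasma-positive library, 7 of them at least 1.1-fold. The shares over all compared genes were 39.0% and 7.18%. The median log2 ratio of the 15 was 0.12, and the summed ratio of complex V was 1.095 (1.086 to 1.104). The F1 part, counted here as the head with its central stalk, had a summed ratio of 1.11 (1.09 to 1.12). The peripheral stalk and membrane part had 1.09 (1.08 to 1.101). Within F1, the genes past 1.1-fold were those of the central stalk, Atp5c1 (1.12), Atp5d (1.11) and Atp5e (1.15). The head genes Atp5a1 and Atp5b had ratios of 1.01 and 1.08. Atp5e, the epsilon subunit, stood at 378 and 437 CPM, a log2 ratio of 0.21 (0.17 to 0.24). Atp5a1 and Atp5b, the alpha and the catalytic beta subunit of the head, stood at 181 and 157 CPM in the plasma-negative library and at 182 and 170 CPM in the plasma-positive library. The ratio of Atp5a1, a log2 value of 0.01, was within counting error although alpha and beta are present in equal number in the enzyme.

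The membrane ring of the ATP synthase is built from subunit c, which 3 genes encode as the same mature protein. Atp5g2 stood at 338 and 367 CPM, Atp5g1 at 166 and 176 CPM, and Atp5g3 at 95.1 and 107 CPM, and Atp5g3 had the highest log2 ratio of them, 0.17 (0.11 to 0.24). Atp5l, another membrane subunit, stood at 236 and 262 CPM. Atp5s, the coupling factor B, stood at 12.97 and 12.41 CPM and was not among the compared members.

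Higher ratios went with shorter annotated transcripts and with higher levels, in the nuclear members and in all genes. Length here is that of the longest transcript annotated for a gene, which need not be the form expressed in these cells. The median longest transcript was 1003 bases for the 70 compared nuclear members and 3483 bases for all compared genes. Across the 3539 compared genes with a length, Spearman's correlation of length with log2 ratio was -0.38, and across the 70 members it was -0.34 (genes of the same 2 libraries, so not independent). The correlation of mean CPM with log2 ratio was 0.17 across all compared genes and 0.53 across the 70 members. Below 1000 bases, the 195 other genes had a median log2 ratio of 0.10 and the 34 nuclear members 0.12, with 29.7% and 26.5% at least 1.1-fold higher. Without the cytosolic ribosomal protein genes, 160 others of that length had a median of 0.07, with 21.9% at least 1.1-fold higher. From 1000 to 2000 bases, the medians were 0.01 for 577 other genes and 0.09 for 21 members, and from 2000 to 4000 bases they were -0.03 for 1226 other genes and 0.06 for 11 members. At 4000 bases or more they were -0.06 for 1459 other genes and 0.08 for 4 members. Those members were Atp5l, Atp5g1, Ndufb7 and Ndufb2, and whether their long forms were expressed was not examined. The share at least 1.1-fold higher went down over these 3 classes in the other genes, from 12.3% to 5.06% and 2.26%, and was 23.8%, 27.3% and 25% in the members. The cytosolic ribosomal protein genes, also short and read at 10 CPM, had a median log2 ratio of 0.16. Of 83, 60 were at least 1.1-fold higher, beside 6.82% of all genes at 10 CPM. Whether length or level takes part in the difference was not tested.

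Per cell, the 2 libraries overlapped widely. With each cell thinned to 1000 UMIs, the mitochondrial members took a median of 1.0% of a plasma-negative cell's UMIs (quartiles 0.6% and 1.6%) and 1.2% of a plasma-positive cell's (0.8% and 1.8%), over 9064 and 9759 cells. The nuclear members took 1.1% (0.8% and 1.4%) and 1.2% (0.9% and 1.5%). The shallower cells left out numbered 796 and 603. Unthinned, the medians were 1.08% and 1.27% for the mitochondrial and 1.06% and 1.16% for the nuclear members.

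**Figure D5:**
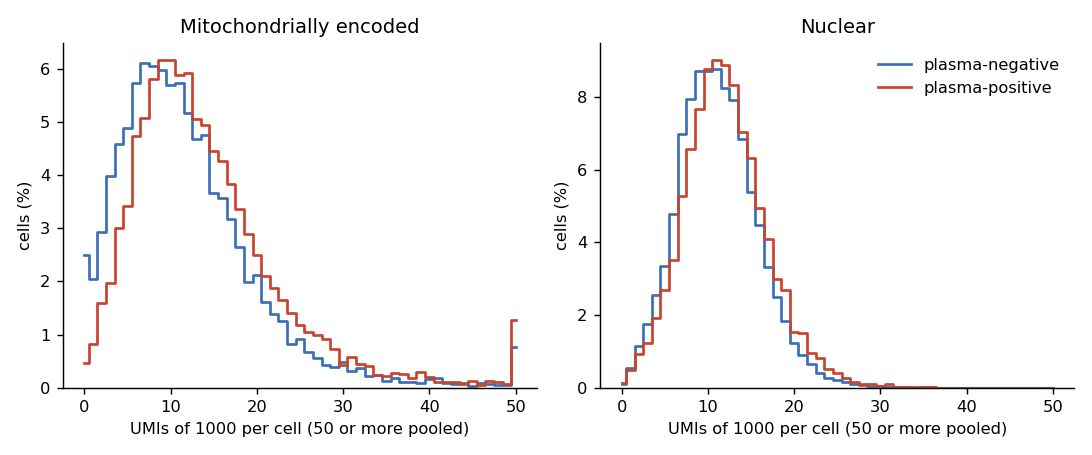
Share of cells (%) against the number of mitochondrially encoded (left) or nuclear (right) member UMIs among 1000 UMIs per cell, with 50 or more pooled in the last step. The 2 libraries overlap over most of the range, and the plasma-negative line has more cells at 0 mitochondrial UMIs, 2.49% against 0.461%.

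Cells without any mitochondrially encoded UMI were more frequent in the plasma-negative library. They numbered 223 of 9860 plasma-negative cells (2.26%, exact binomial interval 1.98% to 2.57%) and 72 of 10362 plasma-positive cells (0.695%, 0.544% to 0.874%). Their median depth was 1438 and 774 UMIs, below that of their libraries. Nuclear members took 0.806% and 0.717% of their UMIs, against 1.12% and 1.21% in all other cells, and nuclear-retained RNA took 10.0% and 12.7%, against 6.57% and 5.43%. The part of depth and RNA quality in this difference was not tested.

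The shares of mitochondrial and nuclear transcripts correlated weakly over cells. At 1000 UMIs per cell, Pearson's correlation of their shares was -0.01 over 9064 plasma-negative and -0.05 over 9759 plasma-positive cells, and at 2000 UMIs it was 0.14 and 0.11. Within the mitochondrial genome, the shares of complex I and complex IV transcripts correlated at 0.65 and 0.64. Between nuclear complex I and complex IV the values were 0.21 and 0.19. The nuclear share correlated with that of cytosolic ribosomal protein transcripts at 0.47 in each library, and with nuclear-retained RNA at -0.45 and -0.49. Cells of 1 library share its preparation, and shares of 1 total constrain each other, so these values describe the libraries only.

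The spread of single transcripts also differed by genome. The Fano factor, the variance of the thinned counts divided by their average, had a median of 1.04 in both libraries for nuclear members and 1.04 for other genes of like level. For the 8 mitochondrial members of high level it was 1.72 and 1.70, against 1.190 and 1.246 in 99 and 85 other genes of like level.

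The shallowest cells stood apart in both shares. Over all unthinned cells, Spearman's correlation of UMIs per cell with the mitochondrial share was -0.04 in the plasma-negative and -0.01 in the plasma-positive library. With the nuclear share it was 0.24 and 0.18. In the shallowest of 10 depth bins (501 to 1416 UMIs), mitochondrial members took 2.75% of plasma-negative and 3.18% of plasma-positive UMIs and nuclear members 0.446% and 0.496%, while nuclear-retained RNA took 15.9% and 14.6%. In the other 9 bins the mitochondrial share lay between 1.01% and 1.64% and the nuclear share between 1.08% and 1.248%. The mitochondrial ratio between libraries was 1.12 to 1.29 and the nuclear ratio 1.05 to 1.11 over all 10 bins.

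Cells with Apoe, a lipid carrier that microglia make in activated states, had more mitochondrial transcripts. At 1000 UMIs per cell, mitochondrial members took 1.71% of the UMIs of the 135 plasma-negative cells with at least 3 Apoe UMIs, against 1.17% in cells with 0, a ratio of 1.46 (1.40 to 1.53). In the plasma-positive library the values were 1.98% in 640 cells and 1.36%, a ratio of 1.45 (1.43 to 1.48). The nuclear ratios were 1.12 and 1.18. In cells with at least 3 UMIs of interferon-response genes, the mitochondrial ratio to cells with 0 was 0.993 (0.944 to 1.04) in the plasma-negative and 1.127 (1.101 to 1.153) in the plasma-positive library, and the nuclear ratio 1.09 and 1.11. In cells with at least 3 UMIs of cell cycle genes the mitochondrial ratio was 1.01 and 0.971, and the nuclear ratio 1.09 and 1.14.

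The library difference was also present in cells with none of these transcripts among 1000 drawn UMIs. With each cell thinned to 1000 UMIs, 4202 plasma-negative and 3662 plasma-positive cells had 0 UMIs of all 3. Among these cells the mitochondrial ratio between the libraries was 1.17 (1.15 to 1.18) and the nuclear ratio 1.07 (1.05 to 1.08). A count of 0 after thinning does not show that a cell lacked these transcripts, so cells that carry them can remain in this set. Read at 10 CPM, the interferon-response list itself had all 12 of its compared genes at least 1.1-fold higher in the plasma-positive library. The cell cycle list had 5 of 7, and the share over all 8355 genes at that level was 6.82%.

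The other lists of energy metabolism, mitochondrial and cytosolic, are read at 10 CPM, beside 6.82% of all genes at least 1.1-fold higher and 16.5% lower. Of complex II and the electron carriers, 1 of 9 was at least 1.1-fold higher and 0 lower, with a median log2 ratio of 0.04. Cycs, the cytochrome c gene, stood at 90.4 and 95.8 CPM. Of 16 TCA cycle genes, 2 were higher and 1 lower (median 0.03), and of 13 genes of glycolysis, which runs in the cytosol, 1 was higher and 0 lower (median -0.00). The median of all genes at this level was -0.04.

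Genes that build or regulate the complexes had medians from -0.10 to -0.00, beside -0.04 for all genes. Of 15 complex IV assembly genes, 0 were higher and 3 lower (median -0.00), and of 5 complex III assembly genes, 0 were higher and 2 lower (median -0.10). Of 14 genes for transcription and upkeep of mitochondrial DNA, 1 was higher and 4 were lower (median -0.04). Tfam, which packages and transcribes that DNA, stood at 36.6 and 35.4 CPM. Of 9 nuclear regulators, 0 were higher and 2 lower (median -0.09), and Nrf1, whose motif was searched above, stood at 34.3 and 29.6 CPM.

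Of 77 mitochondrial ribosomal protein genes, 5 were higher and 6 lower (median -0.00), in contrast to the cytosolic ribosomal protein genes. Of 19 carrier, import and dynamics genes, 2 were higher and 2 lower (median 0.03). The highest of these was Ucp2, an inner-membrane carrier, at 210 and 242 CPM. Of 4 other ATP synthase genes, 1 was higher and 0 lower (median 0.06). The nuclear-retained list had 3 of 3 compared genes lower, led in level by Malat1 at 65694 and 54074 CPM.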

How the data were processed

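The authors deposited raw counts of UMIs for each gene in each cell. Per the file headers these came from Cell Ranger 6.1.2, and the submitters' processing notes name 3.0.1. The kit was Chromium Single Cell 3' v3.1 per the labels, so molecules were counted near the 3' end and levels were not divided by length. The genome build, annotation and calling settings are not given in the sources used here. GENCODE M21 (GRCm38) was used only for positions, overlaps and lengths. Cell barcodes were not used here.

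Cells with at least 500 UMIs, 300 genes and at most 10% mt- UMIs were kept (of 9878 and 10390), and counts were summed per library and given per 1000000 UMIs. Genes that reached 50 CPM in either library (10 for lists) were compared, members and others alike. Called means at least 1.1-fold. With 1 library per group no test was possible. The interval code was tested on simulated data. Doublets were kept. Scrublet (scanpy 1.11.5) called 0 cells automatically, and removing the 778 and 859 highest scores is an alternative. Named were all mitochondrial members, the 3 most abundant nuclear members per complex, the 5 highest and 5 lowest nuclear ratios, isoform families, members at 0 and Ndufaf factors. Further genes named (such as Uqcrc1 and Ucp2) were chosen after their values were seen. Members and lists were chosen with earlier results of these data known. Python 3.11.15, numpy 2.4.6, scipy 1.17.1, pandas 2.3.3 and edgeR 4.0.16 (TMM only) were used.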

Additional observations from a re-analysis of the deposited data

How the results depend on the processing

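With 1 library per group, 733 values were recomputed, 605 under alternatives chosen with the design and 128 under alternatives chosen after seeing the data. Of these, 571 stayed within their interval or, for counts, within 1.5 times, and 144 moved. The other 18, whose interval lay on 1 side of no difference, took the other sign. For medians over members the interval was taken from the medians of the members' own bounds, and is not a counting interval of the median itself. No paired analysis was possible because both groups are single libraries. Every alternative kept the mitochondrial members higher. Depth limits the members under 50 CPM, and no setting shows the spread between mice.

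The summed mitochondrial ratio was 1.20 with a minimum of 1000 UMIs per cell, 1.19 without the highest doublet scores, 1.20 over a total without mitochondrial and ribosomal genes, 1.22 with TMM scaling, 1.14 as a mean over cells, 1.20 in thinned cells, and 1.17 over a total without nuclear-retained RNA. The median mitochondrial log2 ratio was 0.27 without mitochondrial and ribosomal genes in the total, 0.29 with TMM scaling and 0.20 as a mean over cells. The summed nuclear ratio was 1.077, 1.097, 1.111, 1.092 and 1.068 with the 1000 UMI minimum, the total without mitochondrial and ribosomal genes, TMM scaling, the mean over cells and the total without nuclear-retained RNA. By complex, the mitochondrial medians were 0.29, 0.25 and 0.26 (I, III and IV) without mitochondrial and ribosomal genes in the total, 0.30, 0.27 and 0.28 with TMM scaling, and 0.21, 0.18 and 0.18 as a mean over cells. They were 0.25 and 0.26 (III and IV) with the 1000 UMI minimum, 0.26 and 0.20 (III and V) in thinned cells, 0.24 and 0.25 (I and III) over depth bins, and 0.22 and 0.22 (III and IV) without nuclear-retained RNA in the total. The nuclear complex III median was 0.040 over depth bins and 0.17 at a minimum of 200 CPM. Nuclear members past 1.1-fold higher numbered 36 with TMM scaling and 9 of 18 at 200 CPM, beside 12.4% and 18.5% of all compared genes. The correlation between genomes over cells was 0.14 and 0.11 at 2000 UMIs.

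Averaged over 10 bins of nuclear-retained RNA share, the summed ratios were 1.15 (mitochondrial) and 0.988 (nuclear), the medians 0.22 and -0.024, and their difference 0.24. Each bin weighed the same, and values under this average have no counting interval. The mitochondrial medians were then 0.24, 0.20 and 0.19 for complexes I, III and IV. The nuclear medians were -0.057, -0.056, -0.0023 and 0.011 for complexes I, III, IV and V. Under this average 0 nuclear members were past 1.1-fold higher, beside 3.05% of all compared genes. These named members, whose counting interval lay above 0, changed sign there: Atp5g1 (-0.10), Ndufc2 (-0.069, and -0.019 in thinned cells), Uqcrb (-0.043), Ndufa13 (-0.031), Cox8a (-0.027), Cox4i1 (-0.021), Cox7a2 (-0.021), Cox6a1 (-0.016), Atp5g2 (-0.016), Cox7c (-0.0050), Ndufa2 (-0.0023) and Uqcr11 (-0.0018). Ndufv2 (-0.26) and Ndufaf8 (-0.092) also took the other sign, from values within counting error of 0. The cause was not tested.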
